A study of Mus musculus with 2 samples.

Results

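The genes described here are the subunits of the integrins and of the laminins, with 4 further genes of the hemidesmosome. They were chosen by symbol alone: every feature named Itga or Itgb followed by a number or 1 letter, every laminin chain named Lama, Lamb or Lamc with a number, and Col17a1, Dst, Plec and Cd151. The rule found 40 genes among 31053 features, made up of 25 integrin, 11 laminin and 4 hemidesmosome genes. Their mRNA was followed in single cells of 2 libraries, replicates 1 and 2 of 1 group: hair follicle stem cells from the skin of wild type mice of strain C57BL/6;CD1, 32 days old, whose follicles were growing (anagen). The cells had been sorted for CD34, a surface protein of the bulge, and for H2BGFP, a fluorescent histone driven by the keratin 14 (K14) promoter, which is active in basal keratinocytes. No treatment or second genotype was compared, so the comparisons made were between cell states and between cycling and non-cycling cells inside each library. The labels do not tie the replicates to separate animals. Every p-value measures only the spread left between these 2 libraries once their general difference is removed, pooled over states and cycling classes. That spread may be technical.

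Integrins are receptors made of 1 α and 1 β chain, and laminins are basement membrane proteins made of 1 α, 1 β and 1 γ chain. Basal keratinocytes hold on to the basement membrane with hemidesmosomes, in which integrin α6β4 (Itga6, Itgb4) binds a laminin that holds the chains Lama3 and Lamb3, and is joined to the keratin filaments by plectin (Plec), the epithelial form of dystonin (Dst) and collagen XVII (Col17a1). Integrins with the β1 chain sit in focal contacts linked to actin and bind several ligands, among them the laminin of chains Lama5, Lamb1 and Lamc1. In the follicle, loss of collagen XVII from bulge stem cells is known for its part in hair follicle ageing.

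Kept were 3918 cells of replicate 1 and 3041 of replicate 2, with a median of 9955 and 9797 UMIs (unique molecular identifiers, 1 per captured transcript) per cell. Cells were assigned to follicle states by the mean standardized level of a short list of marker genes, none of which is an integrin, laminin or hemidesmosome gene, and the states are called here by their leading genes. Such a state is a range cut from a score and not a cell type, and 1578 of the 6959 kept cells lay within 0.1 of a limit. No gate was met by 1385 and 983 cells. By the mean of the libraries, 32 of the 33 markers that defined the gates were highest in their own gate, all but Fst. In 1 library each, Krtdap, Sostdc1 and Sbsn were not, with Krtdap in replicate 1 at 367 CPM in the Defb6 Krt79 and 336 in the Krtdap Sostdc1 cells. Non-cycling cells (at most 1 of 12 proliferation markers detected) numbered 33 and 211 in replicates 1 and 2 for the Krt24 Grem1 gate, 261 and 187 for Gdf10 Scrg1, 61 and 149 for Krtdap Sostdc1, 27 and 29 for Defb6 Krt79, 281 and 184 for Edn2 Dio3, 279 and 277 for Fgf5 Fbln5, and 519 and 184 for Wfdc18 Pthlh. Keratinocyte genes were present in every gate, Krt14 at 811 to 8965 and Krt5 at 800 to 6540 CPM (UMIs per 1e6 UMIs). Cd34, the sort marker, was highest in the Krt24 Grem1 cells (307 and 355 CPM) and lowest in the Krt25 Krt71 cells (8.59 and 12), with 21.2 and 19.9 in the Wfdc18 Pthlh cells. The libraries differed in makeup: the Krt24 Grem1 gate took 0.893% of kept cells in replicate 1 and 8.88% in replicate 2, and its median level of the Gdf10 Scrg1 list was 10.9 against 3.60 UMIs per 10000. The Krtdap Sostdc1 cells of replicate 1 likewise held more of the Gdf10 Scrg1 list (10.7 against 2.14). In all, 3 kept cell barcodes were shared by the libraries.

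Counts were summed per state, cycling class and library, and 25 of the 40 members had enough counts to be tested. Levels below are normalized CPM of these sums, replicate 1 first, and a log2 difference compares 1 state with the mean of the other 6 non-cycling states in the quasi-likelihood test of edgeR, called at a Benjamini-Hochberg adjusted p under 0.05 over 10586 genes. Tested jointly, 24 of the 25 differed among states, where 46.8% of all genes did; Itgav, the αv chain, was the exception (adjusted p = 0.088). The Gdf10 Scrg1 cells had 18 members called higher and 0 lower (10.8% and 2.12% of all genes were called), with a member median of 0.79 against 0.05 for all genes. In the Wfdc18 Pthlh cells 2 were higher and 14 lower (12.1% and 7.40%), with a median of -0.92 against 0.05. The other states were mixed. The Krt24 Grem1 cells had 8 higher and 4 lower (10.2% and 8.60% of all genes), the Fgf5 Fbln5 cells 9 and 6 (26.5% in either direction), and the Edn2 Dio3 cells 8 and 4 (10.9% and 8.11%). Krtdap Sostdc1 cells had 6 higher and 0 lower (4.14% and 2.12%), and Defb6 Krt79 cells, the gate with fewest cells, 1 and 5 (6.30% and 3.14%). The model holds the library as a term. Without it, calls of members named here were lost for Itga6, Itgb4, Itgb8 and Lama5 in the Krt24 Grem1 cells, Itgb1 and Lamb2 in the Gdf10 Scrg1 cells, Lama5 in the Wfdc18 Pthlh cells, Itgb4 in the Fgf5 Fbln5 cells, Itgb1 and Lamc3 in the Edn2 Dio3 cells, Itgb6 in the Krtdap Sostdc1 cells and Itgb1, Lama5 and Lamc1 in the Defb6 Krt79 cells.

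**Figure D1:**
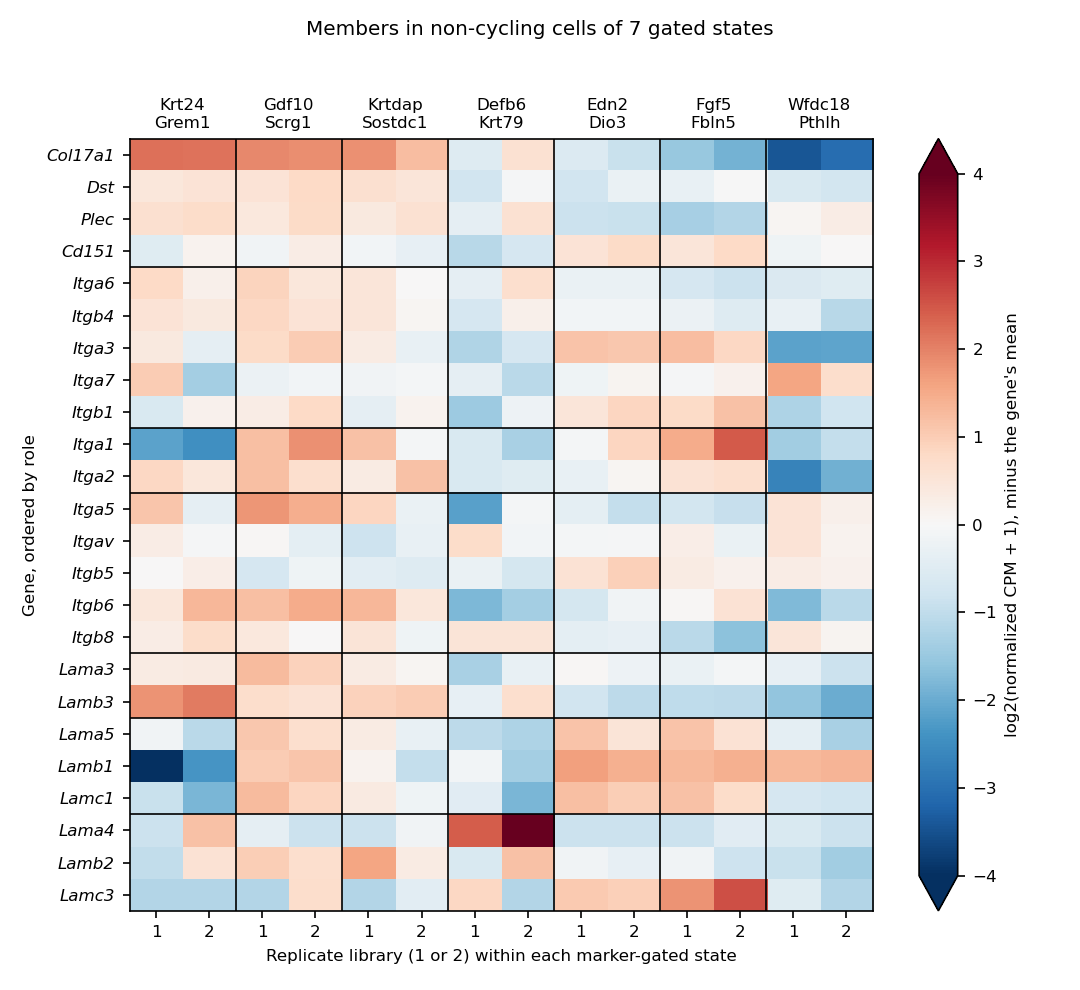
Heat map of 24 tested members (rows) in the non-cycling sums of 7 states and 2 replicates (columns), as log2(normalized CPM + 1) minus the gene's mean over the columns; colours saturate at the ends of the scale. Col17a1, Dst, Plec and Lamb3 are high in the Krt24 Grem1, Gdf10 Scrg1 and Krtdap Sostdc1 columns, while Itgb1, Itga3, Lama5, Lamb1 and Lamc1 are high in the Edn2 Dio3, Fgf5 Fbln5 and Gdf10 Scrg1 columns.

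Promoters are shown for 4 members with opposite orders of level, chosen after their values were seen: Col17a1 and Lamb3, higher in the Krt24 Grem1 cells than in the Edn2 Dio3 and Fgf5 Fbln5 cells, and Itga3 and Lama5, higher in the latter. These orders are of levels, without a direct test between those states, and Itga3 was not called in the Krt24 Grem1 cells. Each line is the 250 bases before the RefSeq start on build GRCm38.p6, 5′ to 3′ on the gene's strand. The windows are chr19:47692043-47692292 (minus strand) for Col17a1, chr1:193301744-193301993 (plus strand, the first of 2 listed starts) for Lamb3, chr11:95076715-95076964 (minus strand, the first of 2) for Itga3 and chr2:180225860-180226109 (minus strand) for Lama5. These starts differ from the gene coordinates given below, which are from GENCODE M21. There Lamb3 starts at 193207699, so its window lies inside the gene. Col17a1 and Itga3 reach to 47692094 and 95076801, so their windows partly overlap the genes. Capitals mark matches to TATAAA or GGGCGG on either strand, so that a match on the other strand reads TTTATA or CCGCCC.
Col17a1: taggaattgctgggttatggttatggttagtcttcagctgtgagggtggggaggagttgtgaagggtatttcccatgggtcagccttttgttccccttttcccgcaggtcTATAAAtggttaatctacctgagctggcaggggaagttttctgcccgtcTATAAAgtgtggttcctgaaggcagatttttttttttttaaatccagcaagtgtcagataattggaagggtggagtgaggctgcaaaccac
Lamb3: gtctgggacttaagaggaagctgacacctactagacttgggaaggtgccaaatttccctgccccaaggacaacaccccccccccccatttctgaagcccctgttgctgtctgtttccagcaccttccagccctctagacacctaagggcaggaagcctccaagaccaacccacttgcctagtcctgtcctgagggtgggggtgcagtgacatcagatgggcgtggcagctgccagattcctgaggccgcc
Itga3: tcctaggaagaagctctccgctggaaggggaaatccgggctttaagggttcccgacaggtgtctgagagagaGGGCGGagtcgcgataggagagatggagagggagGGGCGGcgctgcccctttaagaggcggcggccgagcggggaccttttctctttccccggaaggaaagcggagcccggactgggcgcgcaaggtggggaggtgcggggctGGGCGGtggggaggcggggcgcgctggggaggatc
Lama5: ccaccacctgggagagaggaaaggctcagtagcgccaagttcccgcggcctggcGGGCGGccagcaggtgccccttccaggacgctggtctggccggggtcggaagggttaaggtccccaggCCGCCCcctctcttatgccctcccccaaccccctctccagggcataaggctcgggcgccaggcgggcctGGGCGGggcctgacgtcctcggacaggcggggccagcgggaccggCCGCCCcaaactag
The Col17a1 window held TATAAA at 140 and 91 bases before the start, which 13.0% of 27025 promoters of this length hold at least once. It was the only 1 of the members' 25 listed promoters to hold it. Itga3 held GGGCGG 3 times and Lama5 4 times, a motif in 32.9% of promoters and in 10 of the members' 25 promoters in the table. TGANTCA, the third motif searched, was in 6.87% of promoters, in 1 of the members' 25 and in none of these 4. The Lamb3 window held none of the 3. A match is a description of letters and not a binding site.

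Col17a1 (chr19:47646344-47692094, minus strand), the membrane collagen of the hemidesmosome, had the steepest gradient of the hemidesmosome genes. Its level was 921 and 899 CPM in the Krt24 Grem1 cells, 756 and 720 in the Gdf10 Scrg1 cells and 709 and 469 in the Krtdap Sostdc1 cells. It was 139 and 306 in the Defb6 Krt79 cells, 135 and 107 in the Edn2 Dio3 cells, 69.5 and 52.4 in the Fgf5 Fbln5 cells and 17.5 and 23.2 in the Wfdc18 Pthlh cells. No neighbouring states in that order overlapped between replicates. The log2 difference was 2.57 ± 0.17 (SE, from the fit to both libraries) in the Krt24 Grem1 cells, 2.21 ± 0.16 in the Gdf10 Scrg1 cells and -3.93 ± 0.27 in the Wfdc18 Pthlh cells (adjusted p = 8.32e-10, 1.81e-08 and 1.29e-09 by the edgeR quasi-likelihood test, Benjamini-Hochberg adjusted). Each SE of a log2 difference in this report is derived from the F statistic of that fit, which pools all sums. It is not a spread over 2 values. With every cell thinned to 5000 UMIs, 96.8% and 96.4% of Krt24 Grem1 cells had a Col17a1 UMI, against 4.30% and 4.65% of Wfdc18 Pthlh cells. Cells set apart by fibroblast markers, which should lack the gene, gave 6.90% and 2.63%, near the shares in the Wfdc18 Pthlh cells. However, the cells set apart by markers of any other type together held 157 Col17a1 UMIs, in 32 cells (69.6 CPM, not normalized). Set-apart cells may therefore be no clean background. Whether the share in the Wfdc18 Pthlh cells was at a background was not tested.

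The 3 intracellular or accessory partners varied less. Dst (chr1:33908225-34308661), a plakin that ties keratin filaments to the membrane, was called higher in the same 3 states as Col17a1, with log2 differences of 0.58 ± 0.14 in the Krt24 Grem1, 0.78 ± 0.13 in the Gdf10 Scrg1 and 0.66 ± 0.14 in the Krtdap Sostdc1 cells. Its levels there ran from 601 to 753 CPM, against 254 to 431 in the other 4 states, without overlap. Plec (chr15:76170974-76232574), the plakin that binds the β4 chain, was also called higher in those 3 states (172 to 227 CPM). It was lowest in the Fgf5 Fbln5 cells, at 52.3 and 58.6 CPM, a log2 difference of -1.47 ± 0.14 (adjusted p = 4.88e-10 by the edgeR quasi-likelihood test, Benjamini-Hochberg adjusted). In the Wfdc18 Pthlh cells, where Col17a1 was lowest, Plec was 140 and 164 CPM and was not called. Cd151, a tetraspanin that associates with the laminin-binding integrins, had another order. It was called higher in the Edn2 Dio3 cells (197 and 230 CPM) and the Fgf5 Fbln5 cells (190 and 233), and lower in the Defb6 Krt79 cells (62.1 and 84.7).

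**Figure D2:**
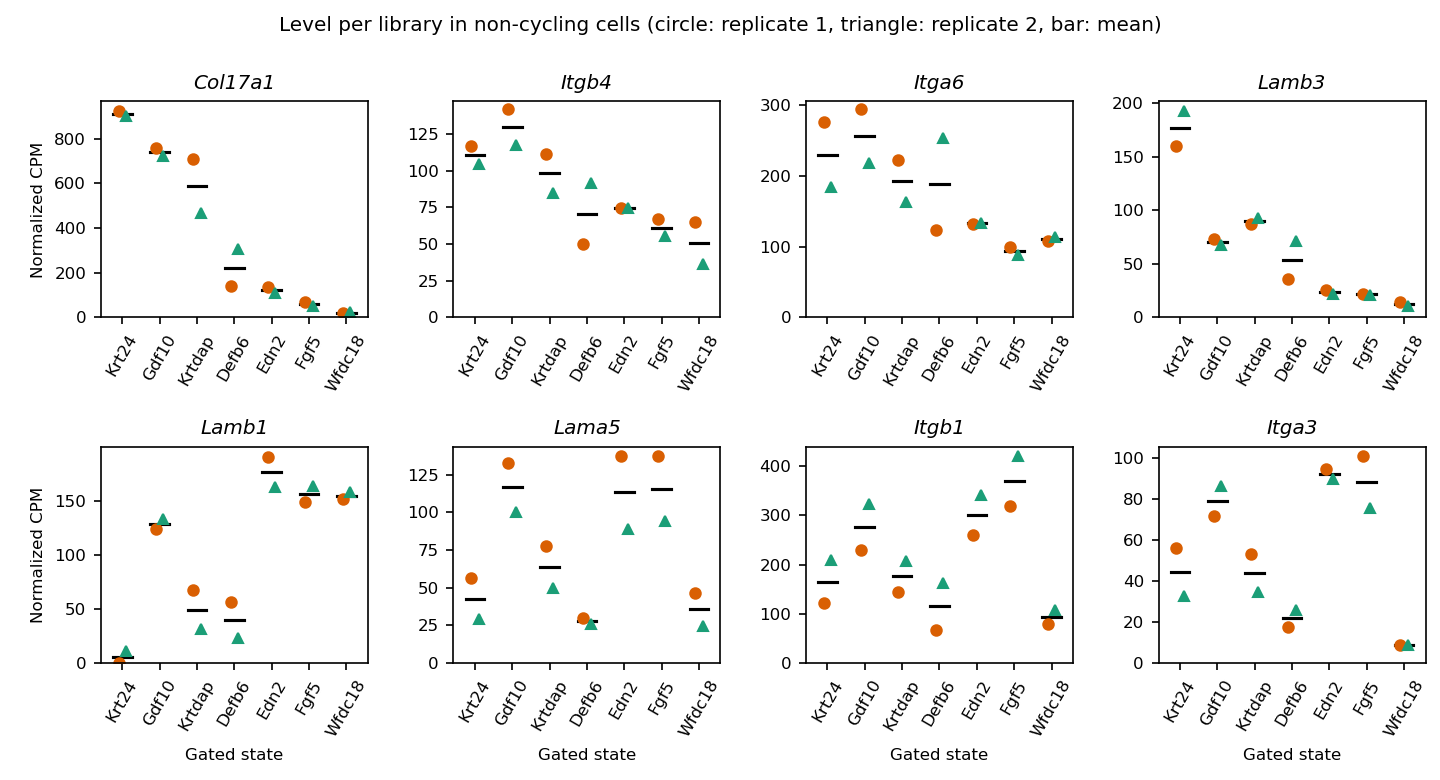
Normalized CPM of 8 members (panels, linear axes from 0) in the non-cycling cells of 7 states; circles are replicate 1, triangles replicate 2 and bars their mean. Col17a1 falls from 921 and 899 in the Krt24 Grem1 cells to 17.5 and 23.2 in the Wfdc18 Pthlh cells, while Lamb1 is lowest in the Krt24 Grem1 cells (0 and 11.1).

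The chains of the hemidesmosome integrin were called in 4 states, over a narrower range than Col17a1. Itga6 (chr2:71745616-71858416) was 295 and 219 CPM in the Gdf10 Scrg1 cells and 277 and 184 in the Krt24 Grem1 cells, against 99.2 and 88.1 in the Fgf5 Fbln5 cells and 108 and 114 in the Wfdc18 Pthlh cells. Its log2 difference was 0.79 ± 0.15 in the Gdf10 Scrg1 cells and -0.91 ± 0.17 in the Fgf5 Fbln5 cells. Itgb4 (chr11:115974709-116008412), the β4 chain with the long cytoplasmic tail that binds plectin, was 142 and 117 CPM in the Gdf10 Scrg1 cells, 117 and 105 in the Krt24 Grem1 cells, 67.2 and 55.2 in the Fgf5 Fbln5 cells and 65.0 and 36.3 in the Wfdc18 Pthlh cells. Both were called higher in the first pair of states and lower in the second. In the Krtdap Sostdc1 cells, where Col17a1, Dst and Plec were called higher, and in the Edn2 Dio3 cells, where they were called lower, neither chain was called (Itga6 223 and 164, and 133 and 134 CPM; Itgb4 112 and 84.5, and 74.3 and 74.5).

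Itgb1 and Itga3 had a different order from that of Itga6 and Itgb4. Itgb1 (chr8:128685654-128733200), the shared β1 chain, was 319 and 421 CPM in the Fgf5 Fbln5 cells and 260 and 342 in the Edn2 Dio3 cells. It was 121 and 209 in the Krt24 Grem1 cells and 78.6 and 108 in the Wfdc18 Pthlh cells. The log2 difference was 1.11 ± 0.11 in the Fgf5 Fbln5 cells (adjusted p = 3.41e-10) and -1.21 ± 0.13 in the Wfdc18 Pthlh cells (adjusted p = 7.09e-09; the edgeR quasi-likelihood test, Benjamini-Hochberg adjusted). Itga3 (chr11:95044474-95076801), the α chain that pairs with β1 to bind laminin, was 94.5 and 89.9 CPM in the Edn2 Dio3 cells, 101 and 75.6 in the Fgf5 Fbln5 cells and 72.0 and 86.3 in the Gdf10 Scrg1 cells, and these ranges overlap. It was 8.86 and 8.93 in the Wfdc18 Pthlh cells, a log2 difference of -2.63 ± 0.23 (adjusted p = 6.70e-11 by the edgeR quasi-likelihood test, Benjamini-Hochberg adjusted). Itga7, a laminin-binding α chain best known from muscle, was the only laminin-binding chain called higher in the Wfdc18 Pthlh cells, at 25.8 and 13.7 CPM against 2.47 to 17.3 in the other 6 states, so the ranges overlap.

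Both tested collagen receptor chains were low in the Wfdc18 Pthlh cells, and only Itga2 was called there. Itga1 (chr13:114953096-115101964), the α1 chain, was 117 and 230 CPM in the Fgf5 Fbln5 cells and 97.5 and 150 in the Gdf10 Scrg1 cells, and it was called higher in both (log2 difference 2.42 ± 0.34 and 1.87 ± 0.37). In the Krt24 Grem1 cells it was 8.65 and 6.80 CPM, a log2 difference of -3.07 ± 0.82 (adjusted p = 0.0178 by the edgeR quasi-likelihood test, Benjamini-Hochberg adjusted). The replicate 1 sum of that state held 250356 UMIs from 33 cells. Its Itga1 level thus rests on very few UMIs, and the size of the difference is uncertain. Itga2 (chr13:114833081-114932100), the α2 chain, lies beside Itga1 and had another order. It was 33.5 and 23.1 CPM in the Gdf10 Scrg1 cells, 25.9 and 19.8 in the Krt24 Grem1 cells and 1.38 and 2.98 in the Wfdc18 Pthlh cells. The last is a log2 difference of -3.33 ± 0.40 (adjusted p = 5.56e-08 by the edgeR quasi-likelihood test, Benjamini-Hochberg adjusted), where 0.409% and 1.74% of thinned cells had a UMI. Itga2 was also called higher in the Gdf10 Scrg1, Krtdap Sostdc1 and Fgf5 Fbln5 cells, the last 2 not with thinned cells.

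Among the chains of the integrins that bind the RGD motif of fibronectin, vitronectin and the latent form of TGFβ, Itgb6 was called in the most states. Itgb6, an epithelial chain that pairs with αv and takes part in activating latent TGFβ, was 103 and 123 CPM in the Gdf10 Scrg1 cells, 60.5 and 110 in the Krt24 Grem1 cells and 110 and 59.5 in the Krtdap Sostdc1 cells. It was 12 and 20.2 in the Wfdc18 Pthlh cells and 11.8 and 16.3 in the Defb6 Krt79 cells, with no overlap between these 2 states and the former 3. It was called in all 5, with log2 differences of 1.59 ± 0.22 in the Gdf10 Scrg1 cells and -1.78 ± 0.31 in the Wfdc18 Pthlh cells. The call in the Krtdap Sostdc1 cells, where the replicates differed most, was lost with thinned cells, and that in the Defb6 Krt79 cells without the cells of highest doublet score. Itgb8, another partner of αv, was 11.1 and 7.29 CPM in the Fgf5 Fbln5 cells (log2 difference -1.69 ± 0.24) and was called higher in the Krt24 Grem1 cells (30.3 and 42.1). Itgb5 was called higher in the Edn2 Dio3 cells alone (63.8 and 83.2 CPM, log2 difference 0.88 ± 0.17). Itga5, the fibronectin receptor's α5 chain, was sparse at 0 to 14.2 CPM and was called higher in the Gdf10 Scrg1 cells (14.2 and 11.2 CPM). Itgav, the αv chain that these β chains share, was 21.3 to 65.1 CPM in all 7 states.

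Lama3 and Lamb3, chains of the hemidesmosome's own laminin, did not share 1 order. Lamb3 (chr1:193207699-193343878) was 160 and 192 CPM in the Krt24 Grem1 cells, 86.8 and 92.7 in the Krtdap Sostdc1 cells and 73.2 and 67.9 in the Gdf10 Scrg1 cells. It was 25.9 and 21.5 in the Edn2 Dio3 cells, 21.6 and 21.2 in the Fgf5 Fbln5 cells and 14.4 and 10.7 in the Wfdc18 Pthlh cells. The log2 difference was 2.31 ± 0.17 in the Krt24 Grem1 cells (adjusted p = 8.59e-13) and -2.07 ± 0.20 in the Wfdc18 Pthlh cells (adjusted p = 9.87e-10; the edgeR quasi-likelihood test, Benjamini-Hochberg adjusted). Lama3, the α3 chain, was 56.2 and 56.9 CPM in the Krt24 Grem1 cells, where it was not called, and it was called higher in the Gdf10 Scrg1 cells, at 108 and 85.0 (log2 difference 1.27 ± 0.15). In the Wfdc18 Pthlh cells both were called lower.

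The chains of the other common epithelial laminin were low in the Krt24 Grem1 cells. Lamb1 (chr12:31265234-31329644), the β1 chain, had 0 UMIs in the 33 such cells of replicate 1 and 18 UMIs (11.1 CPM) in the 211 of replicate 2. It was 190 and 163 CPM in the Edn2 Dio3 cells, 152 and 158 in the Wfdc18 Pthlh cells, 149 and 164 in the Fgf5 Fbln5 cells and 124 and 133 in the Gdf10 Scrg1 cells. The log2 difference in the Krt24 Grem1 cells was -3.33 ± 0.53 (adjusted p = 3.02e-04 by the edgeR quasi-likelihood test, Benjamini-Hochberg adjusted). With thinned cells, 0 of 31 cells of replicate 1 had a Lamb1 UMI, which allows a share of up to 9.68% (3 counts; the exact 95% Clopper-Pearson limit is 11.2%, both for counting error only), and 4.17% did in replicate 2, against 57.0% and 48.8% of Edn2 Dio3 cells. Lamc1 (chr1:153218922-153332786), the γ1 chain, was 25.9 and 13.0 CPM in the Krt24 Grem1 cells (6 and 21 UMIs, log2 difference -1.79 ± 0.26) and 114 and 97.3 in the Edn2 Dio3 cells. Lama5 (chr2:180176373-180225859), the α5 chain, was 56.2 and 29.1 CPM in the Krt24 Grem1 cells (13 and 47 UMIs) and 138 and 89.2 in the Edn2 Dio3 cells. All 3 were called higher in the Gdf10 Scrg1, Edn2 Dio3 and Fgf5 Fbln5 cells and lower in the Krt24 Grem1 cells. In the Wfdc18 Pthlh cells the chains parted: Lamb1 was called higher (log2 difference 1.29 ± 0.26), while Lama5 (46.7 and 24.4 CPM) and Lamc1 (30.1 and 27.4) were called lower.

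Of the remaining laminin chains, Lamb2, the β2 chain, was called higher in the Gdf10 Scrg1 cells (19.7 and 15.8 CPM) and lower in the Wfdc18 Pthlh cells (4.72 and 2.98). Lamc3, the γ3 chain, was called higher in the Fgf5 Fbln5 cells on 20 and 36 UMIs and in the Edn2 Dio3 cells on 9 and 5 UMIs, with 4 or fewer in every other non-cycling sum. Lama4, an α chain known from vessels and other mesenchyme, was called higher in the Defb6 Krt79 cells on 3 and 9 UMIs. These sums are too small for a fold change.

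Within each class of chains the share of UMIs shows which member led in a state. UMIs here are tags from transcript 3′ ends, so the shares are of captured transcripts and not of protein. Lamb3 was 97.4% of laminin β UMIs in the Krt24 Grem1 cells of replicate 1 (37 of 38 UMIs, exact 95% Clopper-Pearson interval 86.2% to 99.9%, counting error only) and 88.1% in replicate 2. It was 47.1% and 68.2% in the Krtdap Sostdc1 cells, 33.7% and 31.3% in the Gdf10 Scrg1 cells, 12.1% and 11.2% in the Fgf5 Fbln5 cells and 8.42% and 6.25% in the Wfdc18 Pthlh cells. Lamb1 made up most of the rest outside the Krt24 Grem1 and Defb6 Krt79 cells. Among laminin α UMIs, Lama5 was 78.8% and 69.0% in the Fgf5 Fbln5 cells and 74.8% and 69.6% in the Edn2 Dio3 cells, while Lama3 was 50.0% and 62.6% in the Krt24 Grem1 cells. The 50.0% was 13 of 26 UMIs, level with Lama5. Lama3 also took 42.1% to 50.0% in the Gdf10 Scrg1, Wfdc18 Pthlh and Krtdap Sostdc1 cells. Among integrin β UMIs, Itgb1 was 64.0% and 70.3% in the Fgf5 Fbln5 cells and 32.2% and 40.4% in the Krt24 Grem1 cells. Itgb4 ran the other way, 13.5% and 9.2% against 31.0% and 20.2%. In the Gdf10 Scrg1, Wfdc18 Pthlh, Krtdap Sostdc1 and Defb6 Krt79 cells Itgb1 took 32.2% to 51.6% and Itgb4 15.1% to 27.5%. Among integrin α UMIs, Itga6 led in the Krt24 Grem1 cells with 62.7% and 64.1%, and Itga1 led in the Fgf5 Fbln5 cells with 29.7% and 50.1%. Itga6 was also 41.4% to 72.2% in the Gdf10 Scrg1, Wfdc18 Pthlh, Krtdap Sostdc1 and Defb6 Krt79 cells. These shares were therefore not particular to the Krt24 Grem1 cells. The shares are given as values, and no test was made on them.

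**Figure D3:**
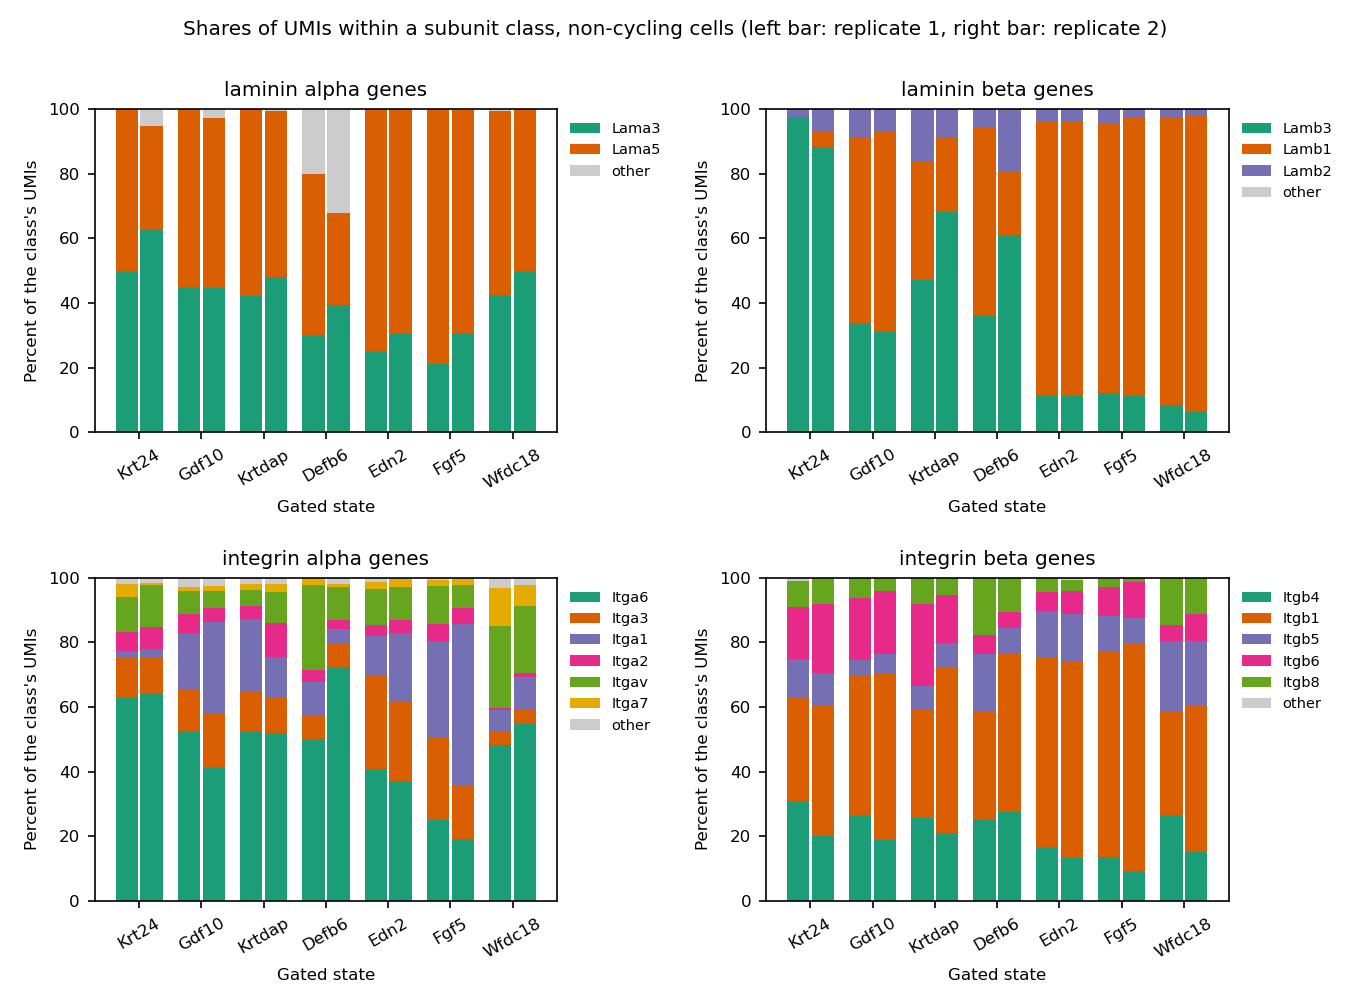
Stacked bars of each chain's percent of the UMIs of its class (laminin α and β and integrin α and β panels) in non-cycling cells of 7 states; the left bar of each pair is replicate 1, the right bar replicate 2, and grey is all other chains. Lamb3 takes 97.4% and 88.1% of laminin β UMIs in the Krt24 Grem1 cells, against 8.42% and 6.25% in the Wfdc18 Pthlh cells.

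Ligands and partners outside the chosen genes gave the setting, from lists of 24 basement membrane and matrix ligands and 25 adhesion plaque and integrin regulators, of which 19 and 22 were tested. In the Gdf10 Scrg1 cells 13 ligands were higher and 0 lower, and 8 plaque genes were higher and 0 lower (10.8% and 2.12% of all genes were called higher and lower). In the Wfdc18 Pthlh cells 2 ligands were higher and 15 lower, and 1 plaque gene was higher and 8 lower (12.1% and 7.40%). The Fgf5 Fbln5 cells had 10 ligands higher and 4 lower and 15 plaque genes higher and 2 lower (26.5% of all genes in either direction). In the Edn2 Dio3 cells these counts were 9 and 2, and 10 and 3 (10.9% and 8.11%). In the Krt24 Grem1 cells 7 ligands were higher and 5 lower, and 4 plaque genes were higher and 8 lower (10.2% and 8.60%). Npnt, nephronectin, a basement membrane ligand of the integrin with chains α8 and β1, was 247 and 406 CPM in the Krt24 Grem1 cells, 154 and 181 in the Krtdap Sostdc1 cells and 125 and 77.1 in the Gdf10 Scrg1 cells, against 1.35 to 3.23 in the Edn2 Dio3, Fgf5 Fbln5 and Wfdc18 Pthlh cells. Col7a1, the collagen of the anchoring fibrils below hemidesmosomes, had 38.9 and 80.4, 31.9 and 41.3, and 38.1 and 32.3 CPM in the former 3 states, and 0 to 1.35 in the latter 3. Fn1, fibronectin, ran the other way, at 229 and 180 CPM in the Fgf5 Fbln5 cells and 8.65 and 9.90 in the Krt24 Grem1 cells, the 8.65 on very few UMIs. Zyx, zyxin, a protein of mature focal contacts, was 305 and 276 CPM in the Fgf5 Fbln5 cells and 77.8 and 34.6 in the Krt24 Grem1 cells.

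Cycling cells (3 or more of 12 proliferation markers) were compared with non-cycling cells of the same gate in the 5 states with at least 20 of each in both libraries. Averaged over the states, 8 members fell and 0 rose (14.3% of all genes were called lower and 11.7% higher), and the member median was -0.29 against -0.09 for all genes. The 8 were 3 of the 4 hemidesmosome genes, both chains of integrin α6β4, Itga3, Lama3 and Lamb3. Col17a1 fell by 0.66 ± 0.13 on the log2 scale (SE; adjusted p = 5.70e-04) and Dst by 0.58 ± 0.08 (adjusted p = 1.48e-06), both by the edgeR quasi-likelihood test, Benjamini-Hochberg adjusted. Dst was lower in the cycling cells of all 10 pairs of state and library, and so were Itgb4 and Lama3. Col17a1, Plec and Itga3 were lower in 9 of 10, Itga6 in 8 and Lamb3 in 6. Itgb4 fell by 0.50 ± 0.10, Plec by 0.40 ± 0.08, Lama3 by 0.40 ± 0.10, Lamb3 by 0.39 ± 0.12, Itga3 by 0.36 ± 0.11 and Itga6 by 0.29 ± 0.10. Col17a1 and Dst were called under every alternative tested. The other 6 were not called with a stricter state gate, nor Itgb4, Lama3, Lamb3 and Itga3 in cells thinned to 5000 UMIs, nor Lamb3, Itga3 and Itga6 without the library term. The stricter gate left no cycling sums for the Gdf10 Scrg1 and Krtdap Sostdc1 cells, and thinning left none for the Gdf10 Scrg1 cells. Both alternatives therefore average over fewer states, and a lost call there cannot be laid to the gate or depth alone. Itgb1 was lower in 5 of 10 pairs, with a log2 difference of -0.02 ± 0.07, and Lamb1 in 5 of 10, with -0.08 ± 0.16, and neither was called.

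By state, Col17a1 was 756 and 720 CPM in non-cycling and 399 and 292 in cycling Gdf10 Scrg1 cells, and 709 and 469 against 266 and 198 in the Krtdap Sostdc1 cells. The groups did not overlap in either state, and the log2 differences were -1.09 ± 0.25 and -1.34 ± 0.25. Col17a1 was called in no other state. In the Gdf10 Scrg1 cells Itgb4 was the other of 2 members called, both lower (1.29% of all genes were called lower), at 142 and 117 CPM against 80.8 and 55.7. The Krtdap Sostdc1 cells had 6 members called, all lower (4.67% of all genes were called lower): Col17a1, Dst, Lamb3, Itgb4, Plec and Itga6. Without the library term 0 of the 2 and 2 of the 6 were called. In the Wfdc18 Pthlh cells 3 were called lower (1.54% of all genes), Itgav, Dst and Plec, and in the Fgf5 Fbln5 cells 1, Dst (0.935%). In these 2 states 0 members were called without the library term. In the Edn2 Dio3 cells edgeR called 0 members (3.93% of all genes), 0 had an unadjusted p under 0.05, and DESeq2 called 0. Whether the cycling difference depended on the state was tested as an interaction: 0 members were called by edgeR (0.0189% of all genes), with 2 at an unadjusted p under 0.05, and DESeq2 called 0. In the Krt24 Grem1 gate 47 cells cycled in replicate 2 and 0 in replicate 1, so no comparison was made.

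Depth and state markers moved with cycling. Median UMIs per cell were 9363 and 8296 in non-cycling and 12804.5 and 10706 in cycling Gdf10 Scrg1 cells, and 8735 and 9085 against 14590 and 18671 in the Krtdap Sostdc1 cells. The gate's own marker list was lower in cycling Gdf10 Scrg1 cells, with 1814 and 1518 against 3066 and 2823 summed CPM, and Tagln, a smooth muscle gene, was higher (573 and 899 against 271 and 330). In the Krtdap Sostdc1 cells the own list was 1436 and 1251 against 1529 and 1743. Their part in the cycling result was not tested.

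**Figure D4:**
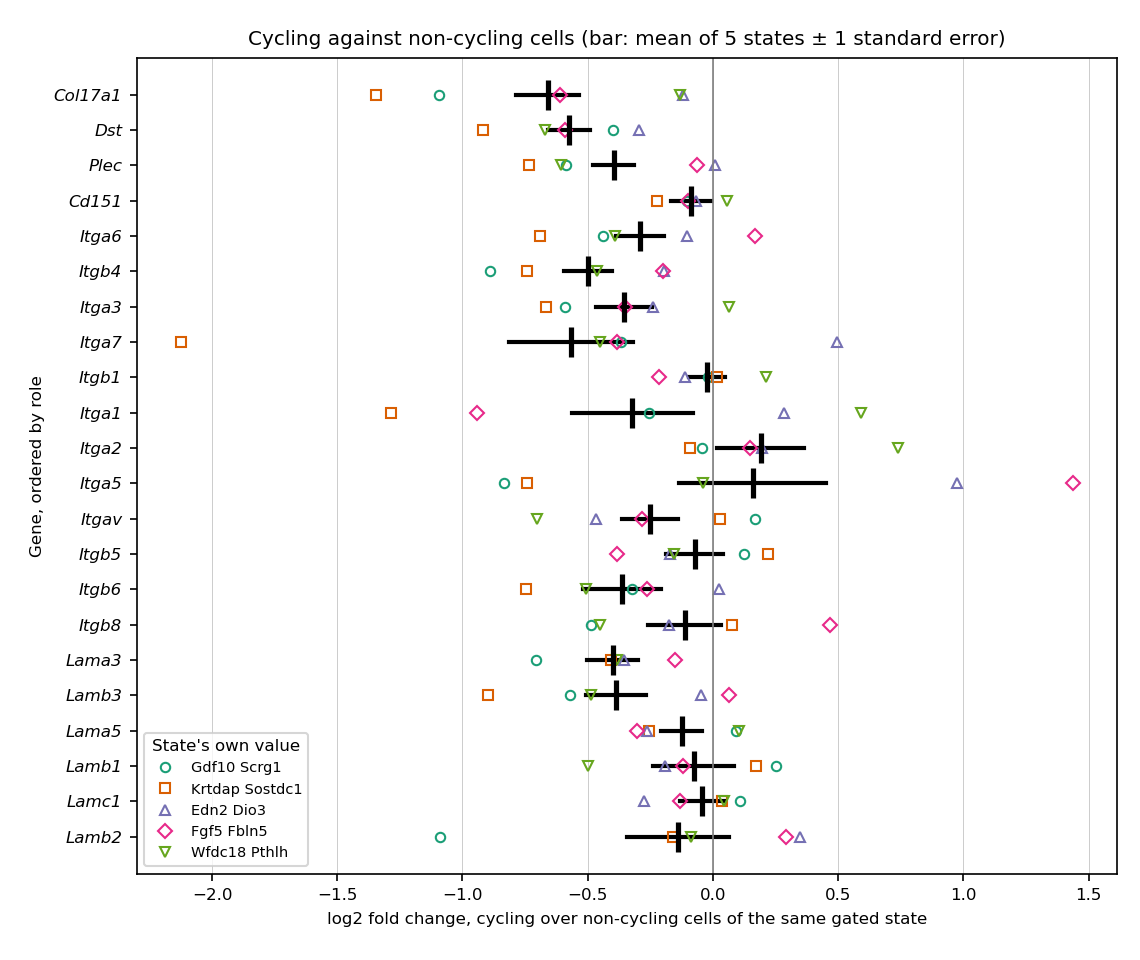
log2 fold change of 22 tested members in cycling over non-cycling cells of the same gate (x axis); the vertical tick is the mean of 5 states and the bar 1 standard error on each side, and open symbols are each state's own value. The means of Col17a1, Dst, Itgb4 and Plec lie left of 0, and that of Itgb1 lies at -0.02.

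The Krt25 Krt71 cells, with genes of the inner root sheath, held 48 and 43 cycling and 11 and 5 non-cycling cells, too few of the latter for a sum, so the cycling ones were set against the other cycling cells, a comparison chosen after the values were seen. There 17 members were called, 1 higher and 16 lower (11.7% and 9.75% of all genes), with a member median of -1.16 against -0.01 for all genes. Itga2 was the 1 called higher, at 46.2 and 46.3 CPM against 0.784 to 34.0 in the cycling cells of the other 5 states, without overlap (log2 difference 1.60 ± 0.25). Col17a1 was 30.2 and 23.2 CPM (log2 difference -1.76 ± 0.30), Itgb4 30.2 and 13.9 (-1.31 ± 0.24) and Lama3 12.3 and 11.6 (-1.61 ± 0.28). Fibroblast markers summed to 503 and 591 CPM in the gate, against 3.07 to 22.0 in the others. Of that list Col1a1, Col3a1 and Pdgfra were at 0 in replicate 1, and Pdgfra was at 0 in replicate 2. Their part in the result was not tested.

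The other 15 members were under the count filter and were not tested. Lama2, Itgb7, Itga10, Itga8 and Itgae had 49, 41, 39, 24 and 21 UMIs in all kept follicle cells of both libraries, and Itgam, Itga11, Itga9, Itgal and Itgb2 had 15, 15, 8, 8 and 5. Itga4 and Itgb3 had 3 each, Itgax 2, Lama1 1 and Itgad 0. They include all 7 leukocyte integrin chains, both other α chains (Itga4, Itga9), the α8 partner of nephronectin, and the fibroblast collagen receptor chain Itga11.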

How the data were processed

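Single-cell RNA libraries were compared between marker-gated states within each of 2 replicate libraries. The deposited matrices hold raw UMI counts, as whole numbers for every pair of gene and cell, per the file headers; Cell Ranger 3.1.0, the mm10 build and Seurat 3.1 are named in the submitters' processing notes, while the gene models used are not stated there. Replicate 1 held 6592 barcodes and 52344178 UMIs, and replicate 2 held 5080 and 38678103. Kept barcodes had 1000 or more genes and a mitochondrial share of UMIs of 10% or less. A cell entered a state where the mean standardized log level of that state's list was at least 0.5, exceeded the next list by 0.25 and rested on at least 2 detected markers; cells with 3 or more markers of fibroblasts, endothelium, melanocytes, immune or mural cells were set apart (89 and 67 cells). The limits were chosen with marker and member values in view.

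UMI counts were summed per state, cycling class and library where both libraries gave at least 20 cells (26 sums of 250285 to 5395219 UMIs). They were tested with edgeR 4.0.16 (R 4.3.3; TMM scaling, filterByExpr, quasi-likelihood F test, two-sided, library as a term), with Benjamini-Hochberg adjustment over 10586 genes; 56 marker genes were left out. Each library holds every state, so sums of a library are paired by source. The fit had 14 coefficients and 12 residual degrees of freedom. Sums of the same library thus count as separate units of the spread, although they share a source. Scrublet's automatic limit called 0 and 1 barcodes, so doublets stayed in and the 348 and 206 highest scores were left out only as an alternative. The fit was tested on simulated data with known fold changes. Members that passed the filter are named, by role, except 1 that is not reported here, and the others are given with their UMIs. Members and lists were chosen with earlier results of these data known. Gene coordinates are from GENCODE M21 (GRCm38). Alternatives were DESeq2 1.42.0 and its size factors, no filter, no library term, thinned cells, doublets left out, a stricter gate, other cycling limits, fewer gates, and each library alone, where no test is possible.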

Additional observations from a re-analysis of the deposited data

Results flagged for a closer look

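Members that were too sparse to test in the follicle cells had UMIs above the level of the other kept cells in cells outside the comparisons, those set apart by 3 or more markers of another type. In the 105 cells with fibroblast markers, Lama2, the laminin α2 chain of mesenchyme and muscle, had 206 UMIs (132 CPM, against 0.644 in the other kept cells), Itgb3 50 UMIs (32.1 against 0.0394 CPM), Itga9 28 UMIs, Itga11 20 UMIs, Itga8 10 UMIs and Itga4 4 UMIs. In the 23 cells with immune markers, Itgam, the αM chain of myeloid cells, had 50 UMIs (181 against 0.197 CPM), its β2 partner Itgb2 43 UMIs (155 against 0.0657 CPM), Itga4 21 UMIs, Itgb7 17 UMIs, Itgax 7 UMIs and Itgae 4 UMIs. The Itgae UMIs were all in 1 cell of replicate 2. Those of Itga4 in cells with fibroblast markers were all in replicate 1, in 3.125% of its 64 such cells.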

How the results depend on the processing

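No value changed direction with a call under any alternative run. Of 3168 member differences recomputed with a test, 3002 kept their side of the threshold, 106 lost the call and 60 gained it. Most of the 3168 were not called as reported and could not lose a call. The 106 are thus a larger share of the differences that could. These alternatives are not independent of each other. Fewer members were called without the library term, that is with no replicate block: 3 in the Defb6 Krt79 cells (6 with it), 5 for the cycling mean (8 with it), 0 in cycling Gdf10 Scrg1 cells (2), 0 in Wfdc18 Pthlh (3), 0 in Fgf5 Fbln5 (1) and 2 in Krtdap Sostdc1 (6). The cycling mean gave 4 with cells thinned to 5000 UMIs and 3 with a stricter gate, 2 of them among the 8, both averaged over fewer states. Cycling counts by state moved as follows. The Gdf10 Scrg1 cells gave 0 with 2 or more cycling markers, 4 without the Krtdap, inner root sheath and upper follicle gates, and 4 with 0 markers for non-cycling cells, an alternative added after seeing the data. The Wfdc18 Pthlh cells gave 1 with no filter on low counts and 5 without the 3 gates. The Fgf5 Fbln5 cells gave 0 with DESeq2 and with 2 or more cycling markers, 2 with no filter, with a stricter gate and with 0 markers, and 3 without the 3 gates. The Edn2 Dio3 cells gave 1 with thinned cells (0 as reported), and the interaction gave 2 with no filter and 1 with 0 markers (0 as reported). The alternatives also differ in the number of genes tested, from 9081 to 19935, and in residual degrees of freedom, from 8 to 13. The shares of all genes called under each alternative are not given here, so a moved count is not a result about the members alone. The cause was not tested. With each library alone, every called difference had the same direction. The calls came from these same 2 libraries, so this is largely built in and no separate check. The Lamb3 share of laminin β UMIs ranged from 88.1% to 97.4% in the Krt24 Grem1 cells and from 6.25% to 8.42% in the Wfdc18 Pthlh cells. Joint and interaction tests cannot be made on 1 library. The thinned, doublet and stricter settings lack sums under 20 cells, among them cycling Gdf10 Scrg1 cells, and the stricter one also lacks cycling Krtdap Sostdc1 cells. Depth limits what can be said of Lamb1, Lamc1 and Itga1 in the 33 Krt24 Grem1 cells of replicate 1.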
